A study of Mus musculus with 22 samples.

Results

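A set of 10 CC chemokine genes was followed through the microarray measurements of murine bone marrow-derived macrophages (BMDM): Ccl2, Ccl3, Ccl4, Ccl5, Ccl7, Ccl8, Ccl9, Ccl12, Ccl17 and Ccl22. The genes were listed by symbol, with earlier results of these data known, and every probe whose RefSeq accession belongs to 1 of them was taken. This gave 10 probes, 1 for each gene, of 55681 non-control probes on the array, and all 10 were among the 22378 genes that passed the filter on dim probes and were tested. The study asked how the kinases MK2 and MK3, encoded by Mapkapk2 and Mapkapk3 and activated by p38 MAPK, shape the macrophage response to lipopolysaccharide (LPS), a cell wall component of Gram-negative bacteria that is sensed by TLR4.

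All cells were differentiated with M-CSF from the femoral marrow of male C57BL/6 mice, and RNA was taken 360 min after addition of LPS (100 ng/ml) or of culture medium alone. The groups were medium-treated wild-type (wt) BMDM (4 arrays), LPS-treated wt BMDM (3 arrays), medium-treated (4 arrays) and LPS-treated (4 arrays) MK2-/- BMDM, and medium-treated (3 arrays) and LPS-treated (4 arrays) BMDM lacking both kinases (MK2/3-/-). The wt mice were 12 to 13 weeks old, the MK2-/- mice 10 to 13 weeks and the MK2/3-/- mice 11 to 14 weeks. The knockout applied to the whole culture and each array measured a bulk population, so that fewer cells expressing a gene and less RNA per cell cannot be told apart. All arrays of a genotype lay on 1 slide with 1 scan time, so genotype and slide cannot be told apart in any direct comparison of genotypes, whereas LPS- and medium-treated cells of a genotype shared a slide.

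Chemokines are small secreted proteins that guide migrating leukocytes through G protein-coupled receptors, and in the CC family the first conserved cysteines are adjacent. Macrophages release many of them when TLR4 is engaged, through NF-κB, MAP kinases and type I interferon. Ccl2, Ccl7 and Ccl12 (the monocyte chemoattractant type) act on CCR2 and draw monocytes out of the marrow and into tissue, and Ccl8 is a relative of theirs. Ccl3, Ccl4 and Ccl5 (the macrophage inflammatory type) draw monocytes and T cells, Ccl3, Ccl5 and Ccl9 act on CCR1, and Ccl17 and Ccl22 act on CCR4 of T helper and regulatory T cells.

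In the RefSeq gene table, the protein-coding CC chemokine genes Ccl2, Ccl7, Ccl11, Ccl12, Ccl8 and Ccl1 follow each other without another protein-coding gene between them, as do Ccl5, Ccl9, Ccl6, Ccl3 and Ccl4. Ccl22 and Ccl17 are separated by Cx3cl1 alone. RefSeq promoter sequences (GRCm38.p6) were at hand for 6 of the 10 members, Ccl22, Ccl17, Ccl12, Ccl8, Ccl9 and Ccl3. The 250 bases before the start of transcription were searched on both strands for the NF-κB consensus, the interferon response element core GAAANNGAAA, the AP-1 motif TGANTCA and the TATA motif TATAAA. The windows of 4 members are printed 5′ to 3′ with any match in capitals: those of the neighbours Ccl12 and Ccl8, whose LPS responses are compared below, that of Ccl9, which held the matches to the NF-κB and AP-1 motifs, and that of Ccl22, whose signal lay at background in both medium-treated knockouts.
Ccl12, chr11:82101595-82101844, plus strand: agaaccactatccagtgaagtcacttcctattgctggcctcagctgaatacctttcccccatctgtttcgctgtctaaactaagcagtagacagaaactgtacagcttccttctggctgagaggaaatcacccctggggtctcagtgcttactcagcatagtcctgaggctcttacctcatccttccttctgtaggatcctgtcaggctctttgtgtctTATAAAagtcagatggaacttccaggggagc
Ccl8, chr11:82114935-82115184, plus strand: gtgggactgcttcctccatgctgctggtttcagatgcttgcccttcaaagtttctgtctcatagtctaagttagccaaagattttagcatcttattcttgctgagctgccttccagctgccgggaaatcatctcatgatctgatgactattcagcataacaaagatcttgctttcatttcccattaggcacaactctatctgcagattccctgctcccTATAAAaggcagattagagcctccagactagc
Ccl9, chr11:83578637-83578886, minus strand: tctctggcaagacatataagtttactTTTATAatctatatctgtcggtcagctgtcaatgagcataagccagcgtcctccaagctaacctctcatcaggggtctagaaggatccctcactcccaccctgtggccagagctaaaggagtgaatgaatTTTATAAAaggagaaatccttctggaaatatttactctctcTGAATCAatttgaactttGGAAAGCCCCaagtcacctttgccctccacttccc
Ccl22, chr8:94745434-94745683, plus strand: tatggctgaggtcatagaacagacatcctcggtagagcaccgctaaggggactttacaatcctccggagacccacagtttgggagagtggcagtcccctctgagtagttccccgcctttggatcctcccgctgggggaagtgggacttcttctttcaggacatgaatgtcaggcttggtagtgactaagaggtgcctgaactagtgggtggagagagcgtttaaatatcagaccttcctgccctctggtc
Ccl12 and Ccl8 each held 1 TATAAA, from base -31 and from base -32 of the start. Ccl9 held TGANTCA from base -53, an NF-κB match on the other strand from base -35, and TATAAA 3 times, with a pair of these matches overlapping on opposite strands. No match to any of the 4 motifs lay in the windows of Ccl22, Ccl17 and Ccl3, which says only that these letters are not in these windows. Among all 32851 promoters of the same length in the table, 7.25% held the NF-κB consensus, 2.98% GAAANNGAAA, 6.75% TGANTCA and 12.4% TATAAA.

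Signal was compared as log2 of the processed spot intensity after quantile normalisation, which gives all 22 arrays the same distribution. A gene was called when its limma p-value, adjusted with the Benjamini-Hochberg method over the 22378 tested genes, lay below 0.05. Between 61.0% and 82.7% of the probes of an array were well above background, and no spot was saturated. The Ccl2 probe was printed 10 times per array, with 6 of these spots left out over all arrays and a standard deviation between these spots of 0.01 to 0.30 on the log2 scale. The macrophage markers with a probe (6 of 7) were well above background on every array. Signal of Mapkapk2 was lower in both knockouts than in wt BMDM, by 3.28 (MK2-/-) and 3.87 (MK2/3-/-) on the log2 scale under LPS, and that of Mapkapk3 was lower in MK2/3-/- BMDM, by 4.11 under LPS and 1.97 in medium. Where these probes lie relative to the deleted parts was not examined.

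**Figure D1:**
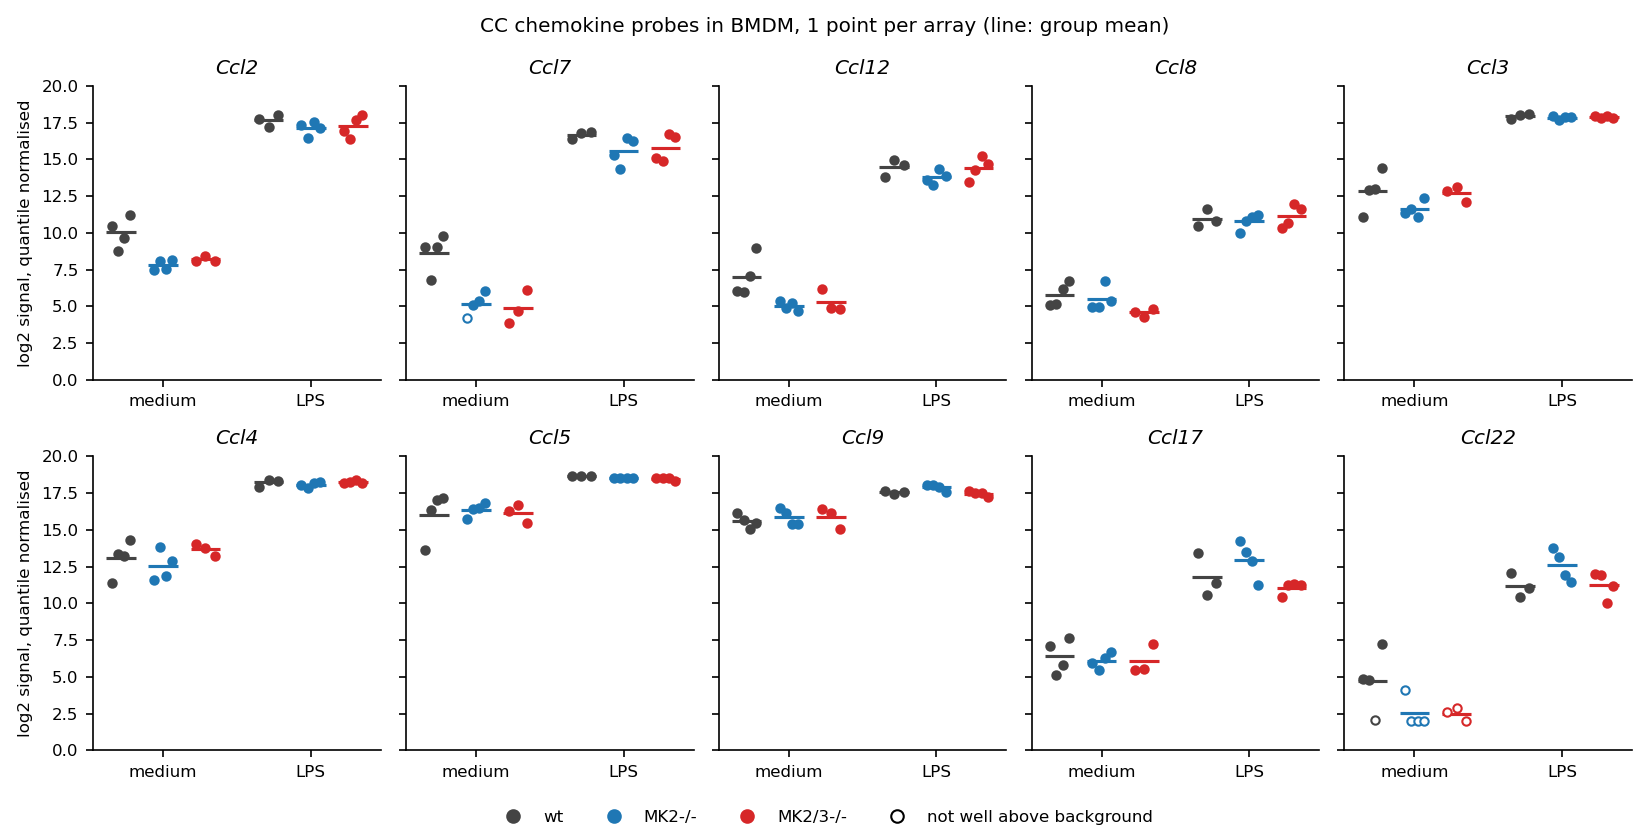
Log2 signal (vertical axis) of the probe of each of the 10 CC chemokines, 1 point per array, in medium- and LPS-treated wt (grey), MK2-/- (blue) and MK2/3-/- (red) BMDM; lines are group means and open points are not well above background. For every gene the 11 LPS-treated arrays lie above the 11 medium-treated arrays.

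LPS raised all 10 CC chemokines in all 3 genotypes. In wt BMDM 10 of 10 were called higher, where 18.6% of all tested genes were, and the same number was called in MK2-/- (17.5% of all genes) and in MK2/3-/- BMDM (20.2%). The median log2 difference of the 10 genes was 5.28 in wt, 6.55 in MK2-/- and 5.86 in MK2/3-/- BMDM, against -0.04, -0.01 and 0.01 over all tested genes. A rise of at least 4-fold was called for 9 members in wt (4.52% of all genes), 10 in MK2-/- (5.15%) and 9 in MK2/3-/- BMDM (5.21%), the exception being Ccl9. No LPS-treated array overlapped a medium-treated array of its genotype for any member, a pattern found in 22.1% of all genes in wt, 17.4% in MK2-/- and 21.4% in MK2/3-/- BMDM. Ranked by the size of the rise in wt BMDM among 22378 genes, Ccl7 took place 3, Ccl2 place 7, Ccl12 place 9 and Ccl22 place 42, whereas Ccl17, Ccl8, Ccl4 and Ccl3 took places 110 to 136, Ccl5 place 684 and Ccl9 place 1076.

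Among the ligands of CCR2, Ccl2 was measured at 10.49, 8.79, 9.65 and 11.23 on the 4 arrays of medium-treated wt BMDM and at 17.77, 17.24 and 18.05 on the 3 arrays of LPS-treated wt BMDM. In MK2-/- BMDM the corresponding signals were 7.47, 8.10, 7.56 and 8.16 in medium and 17.37, 16.47, 17.53 and 17.12 under LPS. In MK2/3-/- BMDM they were 8.07, 8.46 and 8.08 in medium and 16.93, 16.36, 17.70 and 18.01 under LPS. Every medium-treated wt array was thus above all medium-treated knockout arrays, while the 3 genotypes overlapped under LPS. The rise was 7.65 ± 0.46 (log2, SE) in wt, 9.30 ± 0.43 in MK2-/- and 9.05 ± 0.46 in MK2/3-/- BMDM, with limma adjusted p = 6.43e-10, 1.28e-11 and 5.24e-11.

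For Ccl7, too, the medium-treated wt arrays lay above those of both knockouts, with a wider gap than for Ccl2. Its signal in medium was 9.07, 6.78, 9.03 and 9.79 in the wt, 4.22, 5.13, 5.34 and 6.08 in the MK2-/- and 3.90, 4.67 and 6.11 in MK2/3-/- BMDM; the first of the MK2-/- values was not well above background. Under LPS it was 16.40, 16.77 and 16.85 in the wt, 15.29, 14.38, 16.48 and 16.26 in the MK2-/- and 15.07, 14.90, 16.71 and 16.50 in MK2/3-/- BMDM. The highest knockout array in medium stayed below the lowest wt array, and under LPS the highest array of each genotype lay between 16.48 and 16.85. The rise was 8.01 ± 0.69 (log2, SE) in wt, 10.41 ± 0.64 in MK2-/- and 10.90 ± 0.69 in MK2/3-/- BMDM.

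Ccl12 was measured in medium at 6.08, 6.00, 7.04 and 8.98 in the wt, 5.35, 4.88, 5.22 and 4.72 in the MK2-/- and 6.19, 4.88 and 4.83 in MK2/3-/- BMDM. Under LPS its arrays spanned 13.82 to 14.95 in wt, 13.25 to 14.37 in MK2-/- and 13.49 to 15.25 in MK2/3-/- BMDM. In medium the wt arrays lay above all MK2-/- arrays and overlapped with 1 of the MK2/3-/- arrays. Its rise was 7.44 ± 0.58 (log2, SE), 8.74 ± 0.53 and 9.12 ± 0.58 in the same order of genotypes. Ccl8, its neighbour, spanned 5.07 to 6.73 (wt), 4.96 to 6.75 (MK2-/-) and 4.31 to 4.84 (MK2/3-/-) in medium and 10.49 to 11.60, 10.03 to 11.24 and 10.31 to 11.96 under LPS. Its rise of 5.18 ± 0.50, 5.29 ± 0.46 and 6.56 ± 0.50 was smaller than that of Ccl12 in each genotype, and the 3 MK2/3-/- arrays in medium lay below all other medium-treated arrays.

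Ccl3 and Ccl4 are macrophage inflammatory proteins that attract monocytes and T cells. After quantile normalisation their signal spread over several log2 units in medium and lay in a narrow band under LPS. Ccl3 spanned 11.08 to 14.41 in medium-treated wt, 11.10 to 12.35 in MK2-/- and 12.13 to 13.15 in MK2/3-/- BMDM, and 17.75 to 18.08, 17.69 to 17.93 and 17.82 to 17.96 after LPS. Its rise was 5.12 ± 0.48 (log2, SE), 6.23 ± 0.45 and 5.17 ± 0.48. Ccl4 spanned 11.36 to 14.32, 11.56 to 13.81 and 13.23 to 14.07 in medium and 17.91 to 18.43, 17.85 to 18.27 and 18.18 to 18.43 after LPS, a rise of 5.16 ± 0.52, 5.55 ± 0.48 and 4.57 ± 0.52. The arrays of the 3 genotypes overlapped for both genes in both conditions. In LPS-treated wt BMDM only 52 and 28 of 28098 probes were brighter on average than those of Ccl3 and Ccl4. With each array scaled to its 75th percentile instead, the LPS-treated wt arrays spread over 8.86 to 9.89 for Ccl3 and 9.03 to 10.29 for Ccl4. The medium-treated wt arrays then spread over 2.17 to 5.22 and 2.44 to 5.14.

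Ccl5, a T cell and monocyte attractant, was measured at 13.63, 16.36, 17.01 and 17.19 in medium-treated wt BMDM and at 18.65, 18.67 and 18.67 after LPS. The knockouts spanned 15.78 to 16.83 (MK2-/-) and 15.45 to 16.72 (MK2/3-/-) in medium and 18.53 to 18.54 and 18.35 to 18.53 after LPS. The rise of 2.61 ± 0.56 (log2, SE), 2.15 ± 0.52 and 2.33 ± 0.56 was called in each genotype. Only 1, 4 and 6 of 28098 probes were brighter than that of Ccl5 on average in LPS-treated wt, MK2-/- and MK2/3-/- BMDM, and quantile normalisation sets the value of such a probe from its rank. With each array scaled to its 75th percentile instead, the LPS-treated arrays spread over 9.69 to 10.52 in wt, 9.58 to 10.12 in MK2-/- and 9.75 to 10.05 in MK2/3-/- BMDM, and the groups overlapped. Ccl9, a ligand of CCR1, had the smallest rise of the members, from 15.04 to 16.16 in medium to 17.46 to 17.65 under LPS in wt BMDM; the log2 difference was 1.95 ± 0.32 in wt, 2.03 ± 0.30 in MK2-/- and 1.59 ± 0.32 in MK2/3-/- BMDM.

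Of the ligands of CCR4, Ccl17 was measured at 7.09, 5.12, 5.83 and 7.63 in medium-treated wt BMDM and at 13.47, 10.59 and 11.38 after LPS. MK2-/- BMDM gave 5.95, 5.49, 6.32 and 6.70 in medium and 14.24, 13.48, 12.91 and 11.29 after LPS, and MK2/3-/- BMDM gave 5.49, 5.55 and 7.26 in medium and 10.47, 11.25, 11.34 and 11.22 after LPS. After LPS, 3 of the 4 MK2-/- arrays were above all MK2/3-/- arrays, as were 2 of the 3 wt arrays. The rise was 5.39 ± 0.72 (log2, SE) in wt, 6.87 ± 0.67 in MK2-/- and 4.97 ± 0.72 in MK2/3-/- BMDM.

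Ccl22 was measured in medium-treated wt BMDM at 4.83, 4.77, 2.04 and 7.26, the third not well above background. Every medium-treated knockout array measured it at background, with measured values of 4.11, 1.99, 2.01 and 2.03 in MK2-/- and 2.59, 2.88 and 1.99 in MK2/3-/- BMDM. After LPS it reached 12.06, 10.47 and 11.07 in wt, 13.74, 13.18, 11.94 and 11.48 in MK2-/-, and 12.03, 11.92, 10.03 and 11.16 in MK2/3-/- BMDM. The rise in wt BMDM was 6.47 ± 0.88 (log2, SE). Against the lowest signal of probes well above background, the rise was at least 366-fold in MK2-/- (limma adjusted p = 7.48e-09) and at least 199-fold in MK2/3-/- BMDM (adjusted p = 1.19e-07). The 4 LPS-treated MK2-/- arrays took the same order for Ccl17 and Ccl22.

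**Figure D2:**
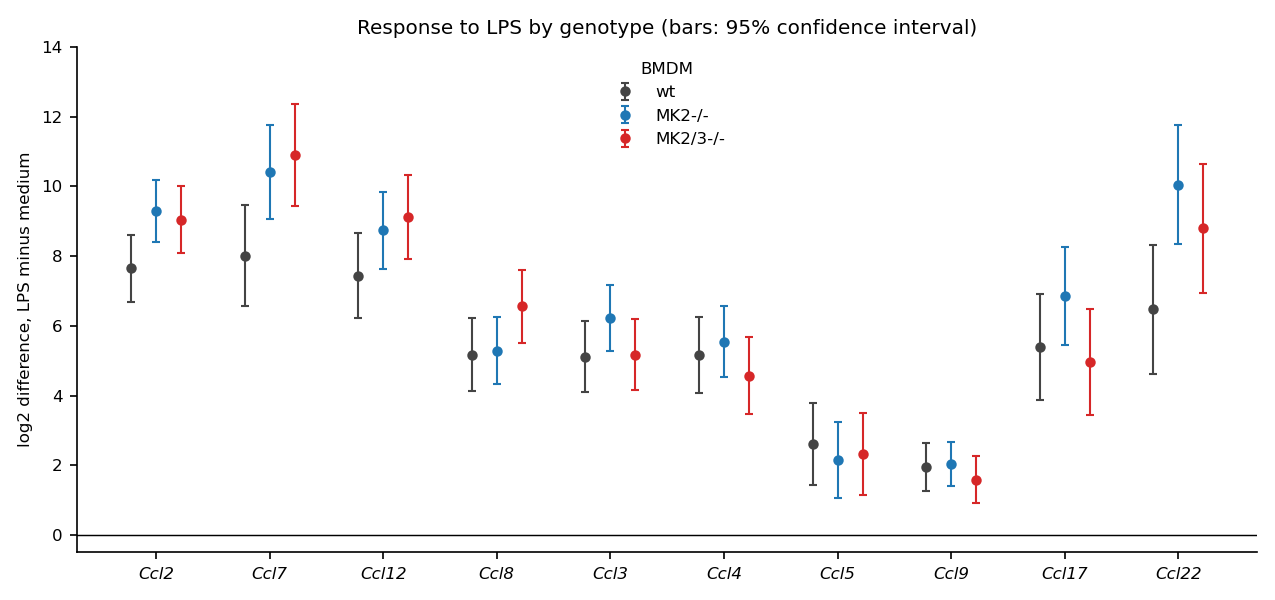
Log2 difference between LPS- and medium-treated BMDM (vertical axis) for each CC chemokine in wt (grey), MK2-/- (blue) and MK2/3-/- (red) cells; points are limma estimates and bars 95% confidence intervals. All 30 intervals lie above 0; for Ccl22 in the knockouts the plotted estimate uses values below background, and only the bounds of 366-fold and 199-fold hold.

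In LPS-treated BMDM none of the 10 genes was called between genotypes: 0 of 10 for MK2-/- against wt (11.6% of all genes), 0 for MK2/3-/- against wt (23.6%) and 0 for MK2/3-/- against MK2-/- BMDM (13.5%). At an unadjusted limma p below 0.05 the counts were 0 (29.5% of all genes), 0 (36.7%) and 1 (Ccl17, 28.3%). The Student's t-test named in the study's methods gave 2 (Ccl5 and Ccl9), 1 (Ccl5) and 2 (Ccl9 and Ccl17) genes at an unadjusted p below 0.05, and 1 (Ccl5), 0 and 0 after Benjamini-Hochberg adjustment. Of all 22378 genes it gave 5910, 5845 and 4414 unadjusted, and 546 after adjustment in the first of these comparisons. The values of Ccl5 in that test are those set by rank: all wt arrays lay above all arrays of both knockouts, by 0.13 and 0.18 on the log2 scale on average, a separation in this direction shown by 15.3% and 15.8% of all genes.

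How large a difference could have been missed varied by gene. The 95% intervals below rest on a spread estimated per gene over all groups, medium-treated ones included. They thus do not measure the spread between LPS-treated cultures alone. On the log2 scale the standard deviation of Ccl3 was 0.18, 0.11 and 0.07 in LPS-treated wt, MK2-/- and MK2/3-/- BMDM. In medium it was 1.37, 0.53 and 0.53 in the same order. For Ccl17 it was 1.49, 1.25 and 0.40 under LPS and 1.15, 0.52 and 1.01 in medium. For Ccl3 the 95% intervals of the 3 genotype comparisons under LPS stayed between -1.13 and 0.99 on the log2 scale, for Ccl4 between -1.24 and 1.18, for Ccl8 between -1.22 and 1.33 and for Ccl9 between -1.06 and 1.03. For Ccl2 they ran from -1.53 to 1.03, for Ccl12 from -1.90 to 1.76, for Ccl7 from -2.52 to 1.54, for Ccl17 from -3.32 to 2.69 and for Ccl22 from -3.02 to 3.24. The difference nearest to the threshold was that of Ccl17 between MK2/3-/- and MK2-/- BMDM, -1.91 (95% interval -3.32 to -0.51, limma adjusted p = 0.0654). Over the alternatives other than leaving out an array, its adjusted p ranged from 0.0227 to 0.195. It was called without LPS-treated wt replicate 1 or without LPS-treated MK2-/- replicate 4, and its adjusted p over all 22 left-out arrays was 0.0194 to 0.207. Ccl17 and Ccl22 were measured 1.17 and 1.39 higher (log2) in MK2-/- than in wt BMDM under LPS, with adjusted p = 0.293 and 0.307.

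The summed signal of 8 dendritic cell markers differed among the same LPS-treated arrays. On the log2 scale it was 12.9 to 14.0 in wt, 13.7 to 15.0 in MK2-/- and 13.9 to 15.2 in MK2/3-/- BMDM. Most of it came from Ccr7, a gene that LPS itself raised. Ccr7 was at 14.82 on the MK2-/- array with a sum of 15.0 and at 14.85 on the MK2/3-/- array with a sum of 15.2. All LPS-treated wt and MK2-/- arrays measured Xcr1 and Dpp4 at background, as the LPS-treated wt arrays did Cd209a, while each of the 8 was well above it on at least 1 array of LPS-treated MK2/3-/- BMDM. The LPS-treated MK2/3-/- arrays with sums of 15.2 and 15.0 held Ccl17 at 10.47 and 11.25. The MK2-/- arrays with sums of 15.0 and 14.9 held it at 14.24 and 13.48. Ccl22 was at 12.03 and 11.92 on these MK2/3-/- arrays and at 13.74 and 13.18 on these MK2-/- arrays. On the remaining knockout arrays, with sums of 13.7 to 13.9, Ccl22 was at 10.03 and 11.16 (MK2/3-/-) and 11.94 and 11.48 (MK2-/-). The wt array with the highest sum, 14.0, held the highest Ccl17 and Ccl22 of its group, 13.47 and 12.06. Of the 8 markers, 2 were called higher in MK2/3-/- than in wt BMDM under LPS (9.61% of all genes) and 3 higher than in MK2-/- BMDM (7.74%). Markers of further cells were also called higher in MK2/3-/- than in MK2-/- BMDM under LPS: 2 of 4 tested for T cells, 2 of 5 for B cells, 1 of 5 for NK cells, 1 of 4 for neutrophils and 1 of 3 for mast cells and basophils. For macrophages 0 of 6 and for fibroblasts 0 of 3 were called higher in that comparison. The part of these cells in the Ccl17 and Ccl22 signal was not tested.

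**Figure D3:**
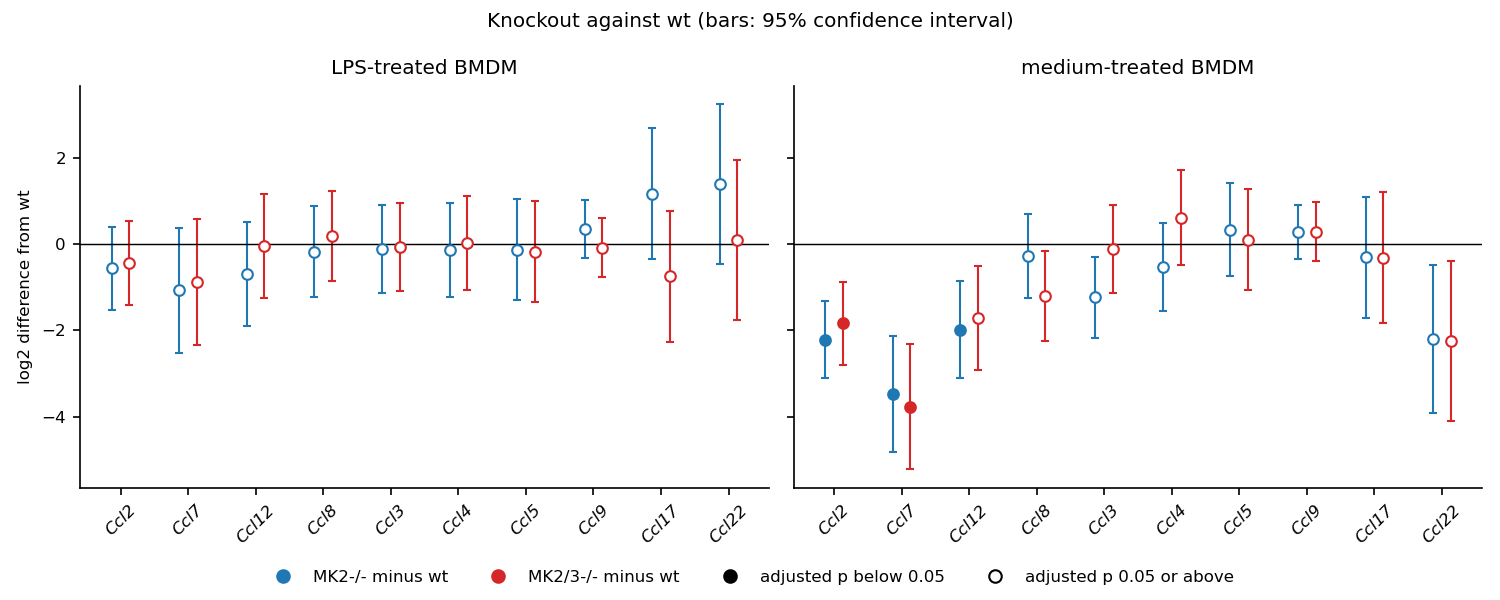
Log2 difference of MK2-/- (blue) and MK2/3-/- (red) BMDM from wt BMDM (vertical axis) for each CC chemokine, in LPS-treated (left) and medium-treated (right) cells; bars are 95% confidence intervals and filled points have an adjusted p below 0.05. The 5 filled points are Ccl2, Ccl7 and Ccl12 for MK2-/- and Ccl2 and Ccl7 for MK2/3-/-, all in medium and all below 0.

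In medium, without LPS, the CCR2 ligands Ccl2 and Ccl7 were lower in both knockouts and Ccl12 was lower in MK2-/- BMDM. All these calls were lost when Benjamini-Hochberg adjustment, which the methods do not name, was added to the methods' t-test. Without adjustment, that t-test gave counts within 1.5 times of those below. In MK2-/- against wt BMDM 3 of the 10 genes were called, all lower, where 8.82% of all genes were called and 3.11% called lower. Ccl7 was lower by 3.47 ± 0.64 (log2, SE; 11.1-fold, limma adjusted p = 0.00480), Ccl2 by 2.22 ± 0.43 (4.65-fold, adjusted p = 0.00608) and Ccl12 by 1.98 ± 0.53 (3.96-fold, adjusted p = 0.0287), and the arrays of the groups did not overlap for any of them, as for 7.54% of all genes in this direction. In MK2/3-/- against wt BMDM 2 genes were called, both lower, where 2.02% of all genes were called and 0.523% called lower: Ccl7 by 3.77 ± 0.69 (13.7-fold, adjusted p = 0.0138) and Ccl2 by 1.84 ± 0.46 (3.57-fold, adjusted p = 0.0463). With normexp background correction the differences of the dim probes were smaller: that of Ccl7 was -2.16 for MK2-/- and -2.27 for MK2/3-/- cells, both still called with adjusted p = 0.0171 and 0.0375, and that of Ccl12 for MK2-/- cells was -1.02 and no longer called (adjusted p = 0.122). Between MK2/3-/- and MK2-/- BMDM in medium 0 of 10 were called (2.82% of all genes). Ccl3 and Ccl4, 1.11 and 1.14 higher in MK2/3-/- cells, had an unadjusted limma p below 0.05, as had 15.0% of all genes. The unadjusted t-test of the methods gave 1 member, Ccl3, and 3469 of all 22378 genes.

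Further members were measured lower in the knockouts in medium without being called. Ccl12 was 1.72 lower in MK2/3-/- BMDM (adjusted p = 0.123), and Ccl8 1.20 lower (adjusted p = 0.223) without overlap of its arrays, as for 11% of all genes in this direction. Ccl3 was 1.23 lower in MK2-/- BMDM (adjusted p = 0.0921). Ccl22 was below background in both knockouts in medium. Its wt mean lay at least 1.58-fold above MK2-/- (adjusted p = 0.0988) and at least 2.11-fold above MK2/3-/- BMDM (adjusted p = 0.195). That mean includes replicate 4 at 7.26, against 4.83, 4.77 and 2.04 on the other wt arrays. The level used for MK2-/- BMDM was 4.07, and the mean of the other wt arrays lies below it. The bound against MK2-/- BMDM thus does not hold without replicate 4. The level used for MK2/3-/- BMDM was 3.65, and that bound becomes smaller without replicate 4. The remaining differences of Ccl4, Ccl5, Ccl9 and Ccl17 from wt BMDM in medium lay between -0.53 and 0.61. The median over the 10 genes was -0.88 in MK2-/- and -0.76 in MK2/3-/- BMDM, against 0.00 and -0.02 over all genes. The median in MK2/3-/- BMDM was -0.34 with each array scaled to its 75th percentile, and with normexp the medians were -0.56 in MK2-/- and -0.33 in MK2/3-/- BMDM.

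One medium-treated wt array stood apart for these genes. Replicate 4 was the highest of its group for 9 of the 10 members, by a median of 1.60 (log2) over the mean of the other 3 arrays, whereas replicate 1 was the highest for 1 member and replicates 2 and 3 for none. The same array was the highest of its group for 53.6% of the 1012 genes that LPS raised at least 4-fold in wt BMDM and for 23.9% of all genes. Without it, Ccl7 was lower by 3.10 in MK2-/- (adjusted p = 0.0181) and by 3.40 in MK2/3-/- BMDM (adjusted p = 0.0381), and Ccl2 by 1.82 in MK2-/- BMDM (adjusted p = 0.0198). Ccl12 in MK2-/- (-1.33, adjusted p = 0.0737) and Ccl2 in MK2/3-/- BMDM (-1.44, adjusted p = 0.112) were then no longer called. Every member was still called higher after LPS in wt BMDM without this array.

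**Figure D4:**
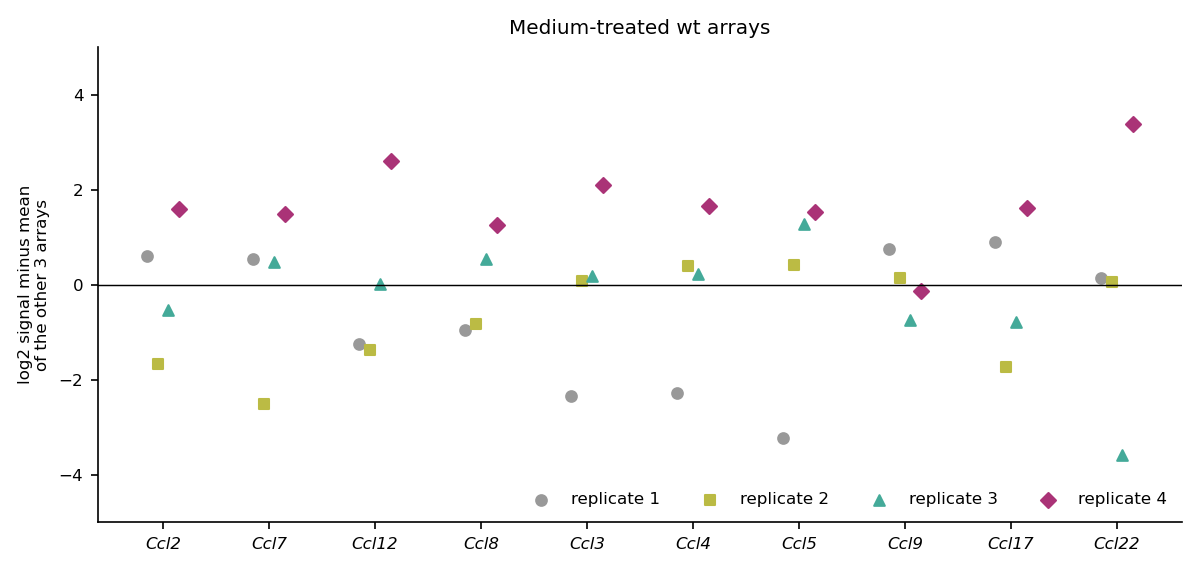
Signal of each CC chemokine on each of the 4 medium-treated wt arrays, as its log2 distance from the mean of the other 3 (vertical axis). Replicate 4 lies above 0 and above the other replicates for 9 genes, all but Ccl9.

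The call of Ccl2 in MK2/3-/- BMDM in medium was the least stable of the 5. It was lost in 16 of 22 fits that left out an array (adjusted p 0.0191 to 0.209), among them fits without an array of another group, and in 7 of 16 other alternatives. The call of Ccl12 in MK2-/- BMDM was lost in 4 of the 22 (adjusted p 0.0209 to 0.0793), those without medium-treated wt replicate 3 or 4 or medium-treated MK2-/- replicate 2 or 4, and in 4 of 16 other alternatives. Without medium-treated MK2/3-/- replicate 1, neither Ccl2 (-1.77, adjusted p = 0.209) nor Ccl7 (-3.28, adjusted p = 0.106) was called against wt BMDM, and both kept their direction. Over all 22 arrays left out in turn, the adjusted p of Ccl7 was between 0.00155 and 0.0186 in MK2-/- and between 0.0041 and 0.106 in MK2/3-/- BMDM.

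The fibroblast markers Col1a1, Col1a2, Pdgfra and Dcn differed between arrays of each group as well. Their summed signal in medium was 16.6, 11.5, 13.6 and 14.7 (log2) on the wt arrays, 11.1, 10.3, 12.6 and 14.7 on the MK2-/- arrays and 8.70, 10.4 and 15.5 on the MK2/3-/- arrays, mostly from Col1a1 and Col1a2, and Pdgfra stayed at background in both knockouts in medium. Within wt BMDM the array with the lowest sum had the lowest Ccl2 (8.79) and Ccl7 (6.78), and in each knockout the array with the highest sum had the highest Ccl7 (6.08 and 6.11). The MK2/3-/- array with a sum of 15.5 and the MK2-/- array with a sum of 14.7 held Ccl2 at 8.08 and 8.16, below all wt arrays, among them the one with a sum of 11.5. The part of these cells in the Ccl2 and Ccl7 differences was not tested.

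**Figure D5:**
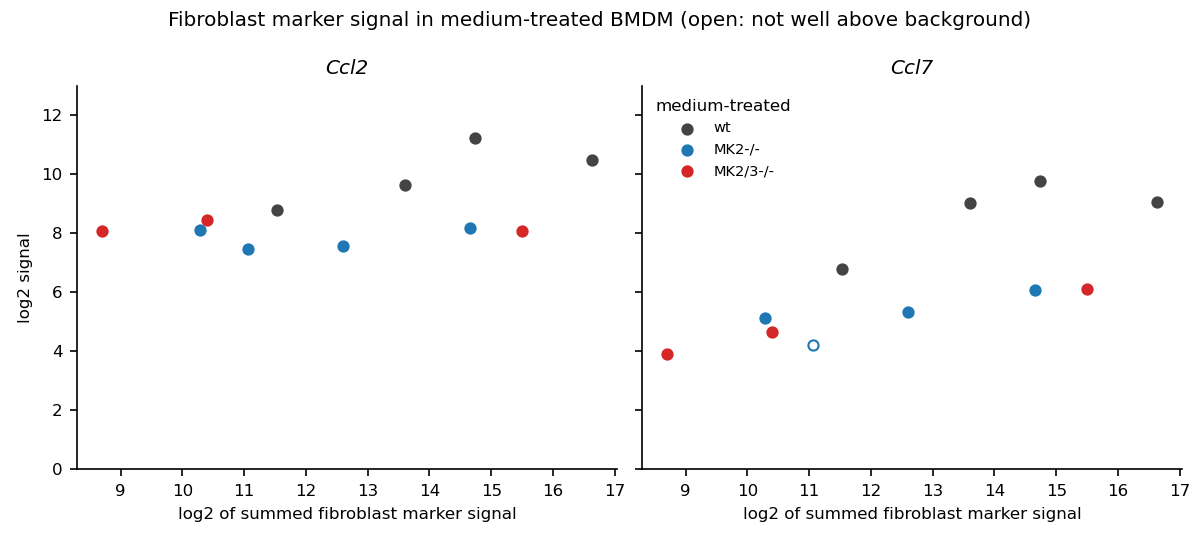
Log2 signal of Ccl2 (left) and Ccl7 (right) on the vertical axis against the log2 of the summed signal of 4 fibroblast markers on the horizontal axis, 1 point per medium-treated array; wt grey, MK2-/- blue, MK2/3-/- red, open not well above background. The wt arrays lie above the knockout arrays for both genes, over sums from 11.5 to 16.6 in wt and from 8.70 to 15.5 in the knockouts.

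The difference between genotypes in the LPS response itself was tested as an interaction. No member passed in MK2-/- against wt (0 of 10, 0% of all genes), in MK2/3-/- against wt (0 of 10, 0.679%) or in MK2/3-/- against MK2-/- BMDM (0 of 10, 0.067%). At an unadjusted limma p below 0.05 the counts were 3 (7.53% of all genes), 2 (11.4%) and 0 (8.61%), all with a larger rise in the knockout. Ccl7 rose 2.40 more on the log2 scale in MK2-/- (95% interval 0.42 to 4.38, adjusted p = 0.592) and 2.89 more in MK2/3-/- BMDM (0.84 to 4.95, adjusted p = 0.196). Ccl2 rose 1.65 (0.33 to 2.97, adjusted p = 0.567) and 1.40 more (0.03 to 2.77, adjusted p = 0.423). For Ccl22 the bound on the means was a rise at least 4.13-fold larger in MK2-/- BMDM. The limma adjusted p of 0.456 belongs to its measured values, in part below background, and not to the bound. These comparisons share the arrays of the medium comparison above and are not separate evidence.

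The pattern of each gene over the 6 group means was set against all tested genes, as the root mean square difference of the centred means. Ccl12 was nearest to Ccl2, at 0.20 on the log2 scale, followed by Slfn4 (0.32) and Hdc (0.35), and Ccl12 itself was nearest to Slfn4 (0.20), Ccl2 (0.20) and Cd40 (0.31). Ccl7 was nearest to the cyclooxygenase gene Ptgs2 (0.56), Hdc (0.63), which encodes histidine decarboxylase, and Il6 (0.66). Ccl22 was nearest to Shisa3 (0.40), Plat (0.44) and Edn1 (0.53), an order that rests in part on its means in the medium-treated knockouts, which lay below background. Ccl17 was nearest to Itgb8 (0.42), an unnamed transcript (0.48) and Gm9895 (0.49). Ccl3 lay beside Ifi211 (0.13), Gm6377 (0.24) and Phf11a (0.26), Ccl4 beside Ifit3 (0.24), Marcksl1 (0.24) and Gch1 (0.25), Ccl5 beside Dram1, Dtx3l and Trex1 (all 0.09), Ccl8 beside Traf1, Plekha4 (both 0.27) and Atp10a (0.30), and Ccl9 beside Gsr (0.08), Psma6 (0.09) and Dse (0.10). Such lists describe likeness over 6 group means only.

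Of 11 other CC chemokine genes 10 had a probe and 7 were tested, with Ccl11, Ccl20 and Ccl28 too dim. Of the 7, 1 was called higher after LPS in wt BMDM (18.6% of all genes) and 1 lower (23.5%). Ccl19, a ligand of CCR7, rose by 0.62 ± 0.16 (log2, SE) and Ccl27a, a skin-homing chemokine, fell by 1.57 ± 0.34. Ccl6, which lies between Ccl9 and Ccl3, was not called and averaged 12.49 in medium and 11.75 after LPS in wt BMDM, and Ccl1, beside Ccl8, stayed at background in medium-treated wt BMDM. Ccl24, a ligand of CCR3, was called higher after LPS only in MK2-/- BMDM (1.94 ± 0.42, adjusted p = 0.000754), a difference between genotypes that was not called in the interactions. Under LPS, Ccl19 was higher in MK2-/- (0.51, adjusted p = 0.0489) and MK2/3-/- BMDM (0.56, adjusted p = 0.0178) than in wt BMDM, and Ccl27a was lower in MK2/3-/- BMDM (-1.09, adjusted p = 0.0259).

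Among 15 genes of CC chemokine receptors and receptor-like proteins, all with a probe, 13 were tested, and Ccr1, the receptor of Ccl3, Ccl5 and Ccl9, and Ackr4 were too dim. LPS raised 5 of the 13 in wt BMDM (18.6% of all genes) and lowered 1 (23.5%). Ccr2, the receptor of Ccl2, Ccl7 and Ccl12, fell by 2.78 ± 0.68 (log2, SE) in the wt, 3.62 ± 0.63 in the MK2-/- and 2.67 ± 0.68 in the MK2/3-/- cells, while these ligands rose. The largest rises in wt BMDM were those of Ccrl2, a chemokine-binding protein (4.79 ± 0.25), Ccr7, the receptor of Ccl19 (4.57 ± 0.62), and Ccr9 (2.93 ± 0.24). Under LPS, MK2/3-/- BMDM had more signal than wt BMDM for Ccrl2 (1.38, adjusted p = 0.00104) and Ackr1, a chemokine scavenger (mean 8.40 against 7.31, adjusted p = 0.00584). Against MK2-/- BMDM, Ccrl2 was likewise higher (1.09, adjusted p = 0.00456) in MK2/3-/- BMDM and Ackr2, a scavenger of CC chemokines, was lower (-1.21, adjusted p = 0.0476). No receptor was called between MK2-/- and wt BMDM under LPS, and no receptor in any interaction.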

How the data were processed

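Total RNA of 22 BMDM cultures was labelled with Cy3 and hybridised to 1-colour Agilent 8x60K mouse arrays, 1 array per culture; per the methods, cultures came from independent experiments. The authors deposited scanner output of Feature Extraction 11.0.1.1 (mm9 annotation), whose processed signal is a background-subtracted intensity, and a value table of log2 intensity, quantile normalised by the authors and centred on each probe's median. Here log2 of the deposited processed intensity was quantile normalised over 22 arrays, control and flagged spots were left out, and repeated spots were averaged. The filter kept RefSeq and GenBank probes that rose well above background on 3 or more arrays, and the brightest probe stood for a gene. Accessions were named through a RefSeq table, which named 27509 of 29150 RefSeq probes. Groups and replicates were taken from the sample titles.

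One model with 6 group means was fitted to all 22 arrays with limma 3.58.1 in R 4.3.3, after tests on simulated data, and p-values were adjusted by Benjamini-Hochberg over 22378 genes. For a probe that no array of a group measured well above background, a fold is a bound: the dim group's level is then, per array, its own signal or the dimmest signal that the scanner rated well above background, whichever is higher. Such a bound compares group means without sampling error, and the p-value beside it is that of the measured values. Replicates cover the spread between these cultures, and their number limits the precision. The members and gene lists were chosen with earlier results of these data known. All members, each with its single probe, are named. From the lists of other CC chemokines and receptors, genes called between genotypes under LPS or in an interaction and the 3 largest called responses in wt BMDM could be named, of which one item is not reported here; any other gene of these lists was named after its values were seen. Cell type markers are given by counts and sums. Alternatives covered scaling, background correction, probe choice and filters, the samples fitted, array weights, replicate blocks, flagged spots, the methods' t-test, a 2-fold minimum and leaving out each array. Intervals are 95% confidence intervals. No RNA quality value was used here.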

Additional observations from a re-analysis of the deposited data

Results flagged for a closer look

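Of 40 groups of 4 arrays (10 genes in 4 groups), 3 held an array far from the other 3, where chance flags about 1 in 20. Ccl5 in LPS-treated MK2/3-/- replicate 4 was the lowest of its group at 18.35 on the log2 scale, with the nearest array at 18.51. Ccl17 in LPS-treated MK2/3-/- replicate 1 was the lowest at 10.47, with the nearest array at 11.22. Ccl22 in medium-treated MK2-/- replicate 1 was the highest at 4.11, with the nearest at 2.03, and none of the 4 values was well above background. Groups of 3 arrays were not examined in this way.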

How the results depend on the processing

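Counts of CC chemokines called higher after LPS were 9 to 10 in wt and 10 in both knockouts under 16 alternatives, and 10 in each genotype with any 1 of 22 arrays left out. The exception was Ccl5 in wt BMDM under the methods' t-test with Benjamini-Hochberg adjustment. With each array scaled to its 75th percentile the median of all genes after LPS rose by 0.28 to 0.30 (log2), and the members' median rise was 6.09 in wt, 6.88 in MK2-/- and 6.10 in MK2/3-/- BMDM. No LPS response changed sign, and the interactions had a count of 0 under all 14 alternatives run and with any array left out; the methods' t-test gives no interaction.

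For MK2-/- against wt BMDM under LPS the count of 0 stayed 0 with any array left out. It became 1 with array weights (Ccl17, where 6413 of all 22378 genes were called). It became 2 with the methods' t-test unadjusted (5910 of all genes) and 1 with it adjusted (546). For MK2/3-/- against wt under LPS it became 1 with the unadjusted t-test (5845 of all genes) and stayed 0 with any array left out. For MK2/3-/- against MK2-/- under LPS it became 1 with normexp background correction (3100 of all genes), array weights (3990) or the title number as a replicate block (2807). It became 2 with the unadjusted t-test (4414) and was 0 to 1 with an array left out. In medium, MK2/3-/- against MK2-/- gave 1 with the unadjusted t-test (3469 of all genes).

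For MK2-/- against wt in medium the count of 3 became 5 with the title number as a replicate block (1809 of all 22378 genes called). It became 0 with the adjusted t-test (778) and was 2 to 4 with an array left out. For MK2/3-/- against wt in medium the count of 2 became 1 with normexp (325 of all genes), the authors' value table (285) or no filter on dim probes (398 of 26014). It also became 1 with the title number as a replicate block (94) or flagged spots kept (324). With only the compared groups fitted (688) or the adjusted t-test (157) it was 0, and with an array left out 0 to 2. The adjusted p of Ccl2 there was 0.0463 and crossed the threshold with small changes of the fit. The cause of these changes was not tested.

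For 7 of 10 same-letter pairs and 7 of 10 same-number pairs of cultures the correlation of deviations was above 0.1, against 6 of 30 pairs of different letter or number, and same-letter cultures of a genotype came from mice of the same age. Not every pair passed, so the cultures were not treated as paired. The letter as a random replicate block (consensus correlation 0.14) left every count of calls within 1.5 times. Of 120 member differences, 72 were large enough to be given singly. One of these changed sign, Ccl17 in MK2/3-/- against wt BMDM under LPS, which ranged from -1.35 to 0.085 (log2) with an array left out and was positive without LPS-treated wt replicate 1, and of the 48 smaller differences 31 changed sign under at least 1 alternative. Signal over background limits Ccl22 in medium most, and rank limits Ccl5 most under LPS.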
